A study of Mus musculus with 51 samples.

Results

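The genes described here encode the proteins of the mitochondrial ribosome, named Mrpl for the large and Mrps for the small subunit, and were measured in wild-type mammary gland, hyperplastic mammary cells and mammary tumors of a mouse model. All genes with the symbol Mrpl or Mrps followed by digits and with a probe set assigned to a single symbol were taken, which gave 76 of 18192 genes. Where a gene had several probe sets, the one that was brightest on average stood for it. All 76 were among the 15150 genes that passed a filter on low values, and each was above the floor set on intensities on at least 50 of the 51 arrays. By textbook placement 49 belong to the large subunit, 26 to the small subunit, and Mrps36 was not placed. RefSeq lists 78 genes of these names. The remaining genes, Mrpl30 and Mrpl53, had only probe sets shared with another symbol and were not analysed here.

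Mice of the tumor model carried Wap-Cre, which is driven by a milk protein promoter active in secretory mammary epithelium. They also carried an Etv6-NTRK3 fusion allele switched on by Cre, and Rosa-Stop-lacZ, which marks the recombined cells with lacZ. The fusion joins part of Etv6 to the kinase part of the receptor NTRK3. Total RNA was hybridized to 51 Affymetrix arrays. The unsorted wild-type gland group, labelled WT in the sample titles, held 5 arrays from 5 mice. The sorted lacZ-positive hyperplasia group held 4 arrays from 4 mice. Sorted lacZ-positive primary tumor cells gave 8 arrays from 6 mice, and unsorted primary tumors gave 23 arrays from 14 mice, of which the 2 arrays of tumor CR115 were averaged to leave 22 replicates. Tumors transplanted into RAG2-/- hosts, which lack mature lymphocytes, gave 7 sorted arrays from 5 mice of origin and 4 unsorted arrays from 2 mice of origin, CR90 and CR115. Age and reproductive stage are not given in the sources used here. Where several samples came from 1 mouse they were not independent, so the mouse of origin entered the fit as a random block and p-values measure the spread between these samples.

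Mitochondria carry their own small genome, and the proteins it encodes, core parts of the respiratory chain and of ATP synthase, are made by a dedicated ribosome. All of its proteins are encoded in the nucleus, made in the cytosol and imported. Some are descendants of bacterial ribosomal proteins and others are found only in mitochondria. By that textbook division 43 of the genes measured have a bacterial counterpart, 28 are of the mitochondrial kind and 5 were not classed.

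Promoters of such genes are known to hold sites for nuclear respiratory factor NRF1, for ETS family proteins such as GABP, and for YY1. RefSeq windows of 250 bases before to 50 bases after the gene start (GRCm38.p6) were held for 67 of the 76 genes. No window was held for Mrpl13, Mrpl15, Mrpl19, Mrpl38, Mrpl4, Mrpl54, Mrps28, Mrps34 and Mrps35. The ETS motif, searched on both strands as CCGGAAG, was in the window of 25 genes, or 37.3%, against 16.9% of all genes tested. The NRF1 motif, a GC-rich stretch, was found for 12 genes, or 17.9% against 9.67%. The YY1 motif AANATGGCG was found for 11 genes, or 16.4% against 4.91%. The E-box CACGTG was found for 5 genes, or 7.46% against 10.8%. In the windows of these genes no match of one motif overlapped a match of another. In the 250 bases before the start alone the shares of genes were 25.4% against 13.3% for ETS, 13.4% against 7.87% for NRF1, 2.99% against 2.11% for YY1 and 7.46% against 9.25% for the E-box, so most genes with the YY1 letters held them within the 50 bases after the start. The ETS and NRF1 letters were in a larger share of these genes in both windows, as a description without a test. Counted over windows rather than genes, the E-box was in 9.59% against 9.07%. That count took the same E-box of Mrpl2 more than once, since this gene had several overlapping windows. The 150 bases before the start are printed below 5′ to 3′ for 4 large-subunit genes, with motif matches in capitals: Mrpl51 and Mrpl27 each hold an ETS match, which begins at -90 and -55 from the start, Mrpl45 holds a pair of NRF1 matches, at -120 and -38, and Mrpl50, whose probe set was lower in tumors than in gland, holds no match. Mrpl51 lies at chr6:125192050-125192199 (plus strand), Mrpl27 at chr11:94653641-94653790 (plus strand), Mrpl45 at chr11:97315566-97315715 (plus strand) and Mrpl50 at chr4:49521084-49521233 (minus strand).
Mrpl51: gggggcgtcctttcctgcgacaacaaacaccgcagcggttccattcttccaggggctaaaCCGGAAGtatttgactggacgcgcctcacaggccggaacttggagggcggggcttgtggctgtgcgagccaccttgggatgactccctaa
Mrpl27: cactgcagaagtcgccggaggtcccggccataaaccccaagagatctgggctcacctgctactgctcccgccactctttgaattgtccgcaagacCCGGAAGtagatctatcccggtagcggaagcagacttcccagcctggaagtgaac
Mrpl45: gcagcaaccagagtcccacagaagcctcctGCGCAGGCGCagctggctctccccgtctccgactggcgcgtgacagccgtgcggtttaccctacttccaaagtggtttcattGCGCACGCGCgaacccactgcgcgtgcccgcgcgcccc
Mrpl50: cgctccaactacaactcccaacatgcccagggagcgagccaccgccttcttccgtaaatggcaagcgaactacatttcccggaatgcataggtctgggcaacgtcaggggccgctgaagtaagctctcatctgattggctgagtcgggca
A match is a stretch of letters and not a measured binding site. Like Mrpl50, the genes Mrps5 and Mrps12, which rose in tumors, held no match in the 250 bases before the start. A link between matches and the direction of change was not tested.

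Values are log2 of the deposited intensity with intensities below 32 set to 32, so 5 is the floor and a difference of 1 is 2-fold. Averaged over the 76 genes, the level was 7.60 ± 0.34 (SD, n = 5) in wild-type gland and 7.98 ± 0.18 (n = 4) in sorted hyperplasia. It was 8.12 ± 0.12 (n = 8) in sorted primary tumors and 8.07 ± 0.25 (n = 7) in sorted transplanted tumors. It was 8.41 ± 0.16 (n = 22) in unsorted primary tumors and 8.57 ± 0.25 (n = 4) in unsorted transplanted tumors. Unsorted tumors were thus highest, sorted samples between them and gland, and the sorted groups lay within each other's spread. All unsorted primary tumors, from 8.07 to 8.67, lay above all glands, which reached 7.91. Of the 76 genes, 63 had their lowest group mean in gland (82.9%, against 34.2% of all genes tested), and 52 had their highest in unsorted transplanted tumors (68.4%, against 30.2%).

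**Figure D1:**
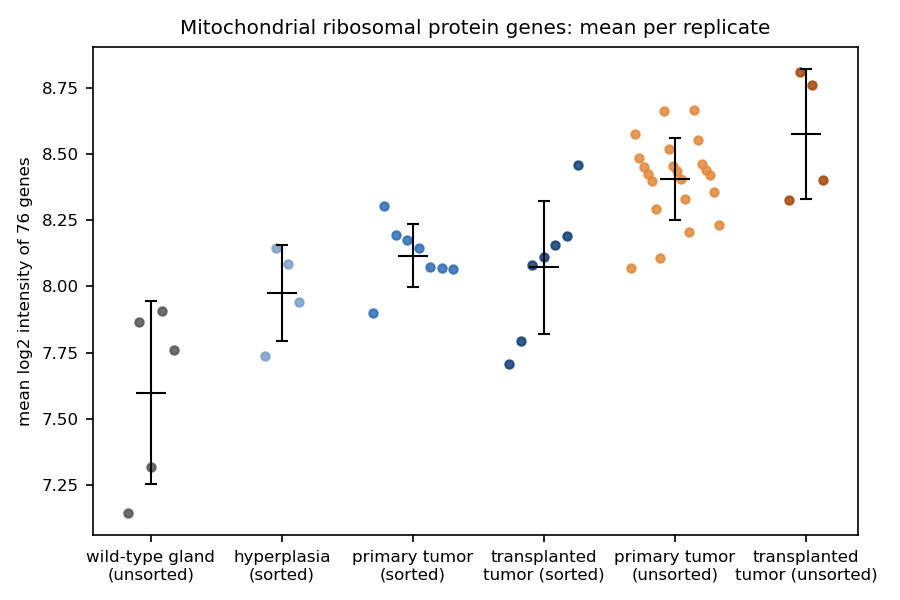
Mean log2 intensity over the 76 mitochondrial ribosomal protein genes, 1 point per replicate, in 6 groups, with bars for the group mean and SD. Gland replicates lie between 7.15 and 7.91 and unsorted primary tumors between 8.07 and 8.67.

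The 5 glands did not form a tight group. The mean over the 76 genes was 7.91, 7.76 and 7.87 in gland replicates 1 to 3, and 7.32 and 7.15 in replicates 4 and 5. The same glands 4 and 5 were low on the mean of the cytosolic ribosomal protein genes, at 10.52 and 10.84 against 11.33 to 11.44 in the other glands, and on the median over all genes tested, at 6.75 and 6.76 against 6.96 to 7.05. Gland 4 also had the highest ratio of 3′ to 5′ control probe sets of all glands, 1.14 for Gapdh and 2.18 for Actb on the log2 scale. Each comparison with gland is therefore given with and without these 2 arrays, a choice made after seeing the data. The part of array quality in the differences was not tested beyond that. Outside gland, sorted primary tumor replicate 1 and sorted transplanted tumor replicate 4 were also low on the cytosolic mean, at 10.86 and 10.9. Their means over the 76 genes were 7.9 and 7.79. Comparisons of sorted tumors were not refitted without them.

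The comparison of unsorted primary tumors with wild-type gland showed the broadest difference. Of the 76 genes, 62 rose and 1 fell at an adjusted p under 0.05 (limma, Benjamini-Hochberg over all 15150 genes), against 29.4% higher and 21.5% lower among all genes tested. The median difference was 0.85, against 0.10 over all genes, and 74 of the 76 differences were above 0. In the large subunit 39 of 49 rose and 1 fell (median 0.85). In the small subunit 23 of 26 rose and none fell (median 0.88), with none lower at an unadjusted p under 0.05 either by limma. Genes with a bacterial counterpart rose in 37 of 43 cases and those of the mitochondrial kind in 21 of 28. In 28 genes (36.8%, against 6.7% of all genes) every tumor lay above every gland. Without glands 4 and 5, 44 genes rose and 1 fell, with a median of 0.61, against 16.7% higher and 17.5% lower of all genes and a median of 0.04.

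**Figure D2:**
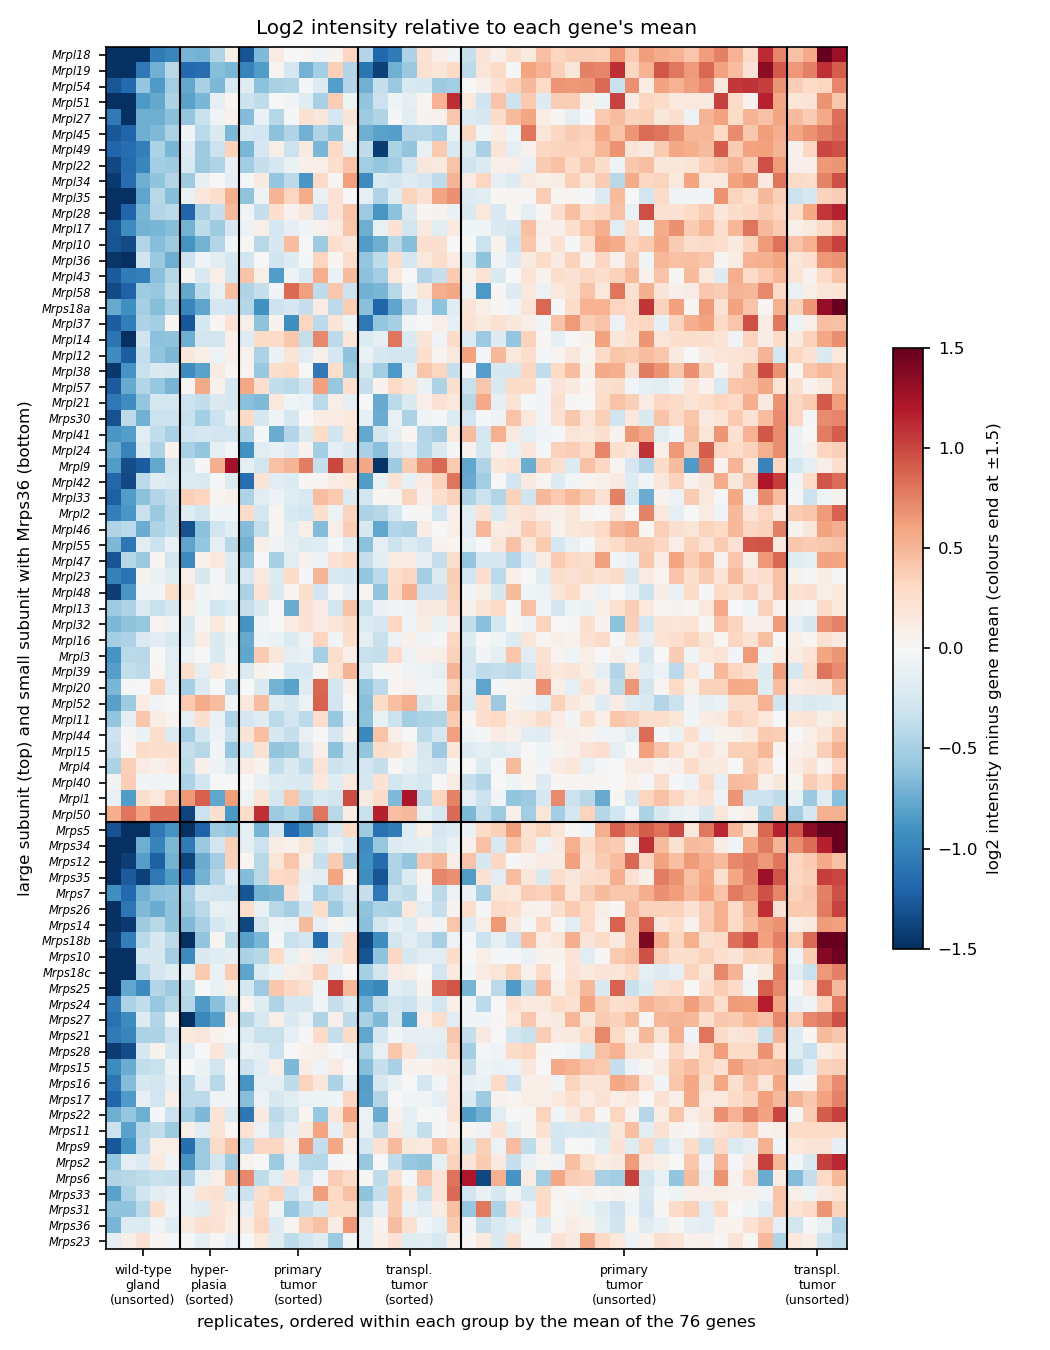
Log2 intensity of each of the 76 genes in 50 replicates, minus the gene's mean over all replicates, with colours ending at 1.5 in either direction, large-subunit genes above and small-subunit genes with Mrps36 below. Unsorted tumors are mostly above the gene mean, glands mostly below it, and replicates 4 and 5 of the gland are the lowest.

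Mrps5 is the counterpart of a bacterial small-subunit protein that helps keep translation accurate. It was 6.09, 5.43, 5.90, 5.07 and 5.67 in the 5 glands. It ran from 6.88 to 8.14 with a median of 7.50 in the 22 unsorted primary tumors. Every tumor was above every gland, and the glands lay close to the floor. The fitted difference was 1.89 ± 0.23 (SE), or 3.72-fold, with adjusted p = 4.46e-09 (limma), and 1.72 without glands 4 and 5. With the mean over its 5 probe sets it was 0.73 (limma adjusted p = 9.05e-07), so the size of the rise depended on the probe set.

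Mrpl18 descends from the bacterial large-subunit protein that binds the smallest ribosomal RNA. Gland values were 6.60, 6.01, 6.53, 6.06 and 5.63, and tumor values ran from 7.23 to 8.70 with a median of 7.98. The groups did not overlap. The difference was 1.88 ± 0.21, or 3.69-fold (limma adjusted p = 4.54e-10), and 1.67 without the 2 low glands.

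Mrps34, a small-subunit protein found in mitochondria and not in bacteria, had gland values of 7.57, 7.51, 7.24, 5.73 and 6.07. Its tumor values ran from 8.01 to 9.33 with a median of 8.63. Groups stood apart, but glands 4 and 5 lay well below the other glands, which widened the gap. The difference of 1.81 ± 0.20 (3.50-fold, limma adjusted p = 7.36e-10) was 1.19 without them.

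Mrps12 is the counterpart of a bacterial protein of the decoding centre, where codon and anticodon are matched. It was 7.29, 7.18, 6.78, 6.59 and 5.80 in gland, and from 7.76 to 8.87 with a median of 8.46 in tumors. No tumor reached down to a gland. The difference was 1.75 ± 0.21 (3.37-fold, limma adjusted p = 3.41e-09), and 1.39 without glands 4 and 5.

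The other leading rises were Mrps35 with 1.72 ± 0.24, Mrpl19 with 1.62 ± 0.23, Mrpl54 with 1.45 ± 0.16 and Mrpl51 with 1.42 ± 0.22, and each was still called without glands 4 and 5, at 1.53, 1.30, 1.21 and 1.00. With the mean over probe sets Mrpl19 was at 0.96, Mrpl54 at 0.79 and Mrpl51 at 0.33, all still called but smaller. Mrpl19 has a bacterial counterpart, whereas Mrps35, Mrpl54 and Mrpl51 are of the mitochondrial kind. Mrpl51 was 9.16, 8.77, 8.86, 7.87 and 7.92 in gland and 9.32 to 10.78 in tumors, so its groups did not overlap. Mrps35 overlapped, with a highest gland of 6.72 and a lowest tumor of 6.72 as printed.

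Among genes with particular places in the ribosome, Mrpl45, which in human cells helps tether the ribosome to the inner membrane, rose by 1.36 ± 0.13 (limma adjusted p = 1.37e-11). Its glands were 7.58, 7.32, 7.40, 6.86 and 6.78, and its tumors ran from 7.99 to 8.90 with a median of 8.52. Mrpl12, the stalk protein at which translation factors dock, was 8.91, 9.23, 8.99, 8.35 and 8.65 in gland and 9.33 to 10.19 in tumors, a rise of 0.98 ± 0.13 (limma adjusted p = 2.06e-08). Every tumor was above every gland for both genes. Without glands 4 and 5 they were at 1.11 and 0.76, still called. Mrpl58, a peptidyl-tRNA hydrolase built into the large subunit, rose by 1.05 ± 0.20 with overlapping groups, and was at 0.74 without those glands and 0.59 with the mean over probe sets, called in both. Mrps30, a large-subunit protein despite its name, rose by 0.85 ± 0.15, and was at 0.69 without those glands. Mrpl3, which lies near the peptidyl transferase centre, rose by 0.43 ± 0.14 (limma adjusted p = 0.01), but its difference was 0.25 without glands 4 and 5 (adjusted p = 0.263) and 0.30 without gland 5 alone (adjusted p = 0.097). Mrpl11, at the base of the stalk, had a difference of 0.21 ± 0.12 that was not called (limma adjusted p = 0.129), whereas the mean over its probe sets gave 0.61 (adjusted p = 1.17e-06).

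A single bacterial small-subunit protein has 3 mitochondrial counterparts, Mrps18a, Mrps18b and Mrps18c, of which Mrps18a sits in the large subunit. All 3 rose in tumors over gland, by 1.04 ± 0.18, 1.16 ± 0.24 and 1.07 ± 0.20. Without glands 4 and 5 they were at 0.91, 0.80 (limma adjusted p = 0.0286) and 0.49 (adjusted p = 0.0491), so the value for Mrps18c was more than 1.5 times smaller. For Mrps18a the highest gland was 7.87 and the lowest tumor 8.30, while Mrps18b and Mrps18c overlapped.

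**Figure D3:**
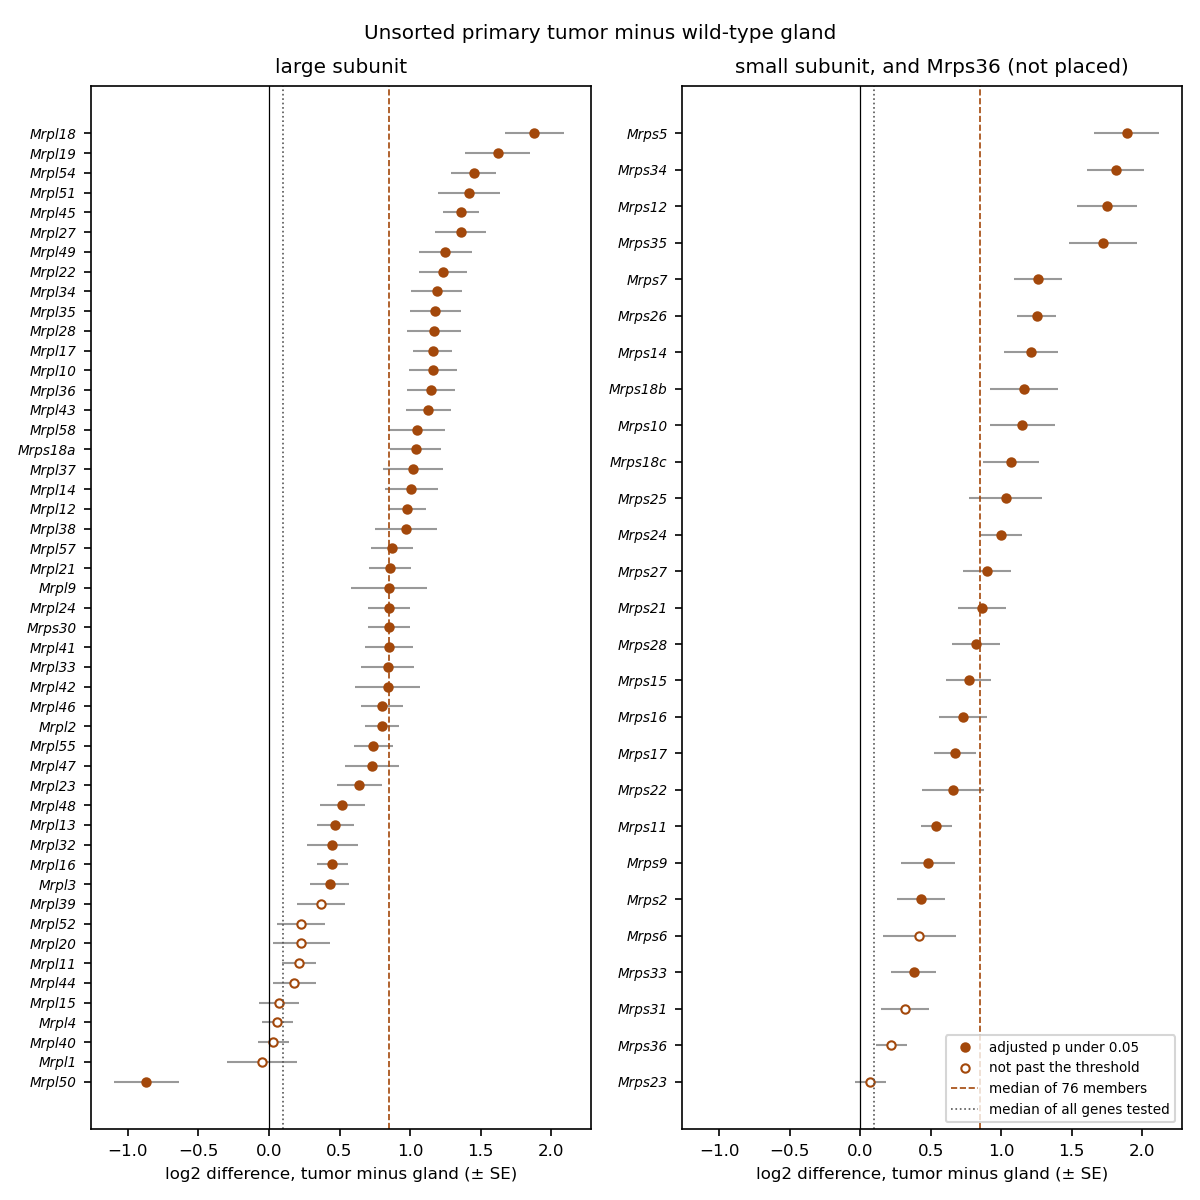
Unsorted primary tumor minus wild-type gland for each of the 76 genes as fitted log2 difference with SE, filled where the limma adjusted p was under 0.05, with the median of the 76 genes dashed and of all genes dotted. Mrps5 is at 1.89, Mrpl50 at -0.87, and 62 filled points lie above 0.

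Mrpl50, a large-subunit protein of the mitochondrial kind, was the gene that fell. It was 8.77, 8.55, 8.78, 8.75 and 8.49 in gland and 7.27 to 8.32, with a median of 7.71, in tumors. Every tumor was below every gland (7.56% of all genes), and glands 4 and 5 were not low here. The difference was -0.87 ± 0.23 (limma adjusted p = 0.00138), and -0.91 without glands 4 and 5. A second probe set of Mrpl50 went the other way, at 0.77 (limma adjusted p = 0.00121), and the mean over its probe sets did not differ by the test (-0.05, adjusted p = 0.818). The direction for Mrpl50 thus depended on the probe set.

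The 13 genes called in neither direction were Mrpl1, Mrpl4, Mrpl11, Mrpl15, Mrpl20, Mrpl39, Mrpl40, Mrpl44, Mrpl52, Mrps6, Mrps23, Mrps31 and Mrps36, with differences from -0.05 for Mrpl1 to 0.42 for Mrps6. Mrps6, counterpart of a bacterial small-subunit protein, ranged from 8.02 to 10.60 in unsorted primary tumors (SD 0.64) and only from 8.93 to 9.05 in gland (SD 0.05). On this probe set its tumors therefore lay on both sides of the glands. The other probe set of Mrps6 was called higher in tumors, at 1.27 (limma adjusted p = 0.000785).

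Of the 76 genes, 42 had more than 1 probe set. The 68 other probe sets that passed the filter, of 40 genes, were called higher 35 times and lower 6 times in tumor over gland, and 49 had the sign of the chosen probe set. For Mrpl13, Mrpl17, Mrpl35, Mrpl50, Mrpl51 and Mrps26 an other probe set was called in the opposite direction. Among these, the other probe set was at -0.75 for Mrpl17, -0.60 for Mrpl35, -0.42 for Mrpl51 and -0.31 for Mrps26, the last above the floor on 4 arrays. The reverse was seen for genes not called, since the other probe sets of Mrpl11 were at 1.14 and 1.09. Those of Mrpl15 were divided, at 1.22, 1.38, 1.27, 0.26, -0.15 and -0.46, the last called lower (limma adjusted p = 0.0143). Mrpl1, Mrpl39, Mrpl44, Mrpl52, Mrps6 and Mrps23 also had other probe sets called higher. Which transcripts these probe sets read was not tested.

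Levels were lower in sorted lacZ-positive than in unsorted primary tumors. No mouse gave primary tumors to both groups, so sorting cannot be told apart from the set of tumors and mice. Of the 76 genes, 34 fell and 1 rose in sorted against unsorted primary tumors, against 15.7% lower and 9.62% higher of all genes, and the median difference was -0.36 against -0.05. Both subunits took part, with 20 of 49 lower in the large and 14 of 26 lower in the small subunit. No gene had groups that stood wholly apart (all genes: 0.323% below and 0.343% above). The unsorted primary tumors also enter the comparison with gland, so these differences and those against gland are not independent of each other.

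Mrpl19 ran from 6.67 to 8.41 with a median of 7.62 in unsorted tumors and from 6.06 to 7.42 with a median of 6.59 in sorted ones. Mrps7, counterpart of a bacterial protein that starts assembly of the small subunit's head, ran from 6.99 to 8.44 with a median of 7.92 unsorted and from 6.20 to 7.70 with a median of 7.03 sorted. For both, the sorted median lay below the whole unsorted range or close to its lower end. Mrpl19 fell by 1.11 ± 0.20 (limma adjusted p = 4.07e-05) and Mrps7 fell by 0.98 ± 0.15 (adjusted p = 2.07e-06). Mrps5 fell by 0.99 ± 0.20, from a median of 7.50 to 6.58. Mrpl54 fell by 0.96 ± 0.14, from 8.54 to 7.48, and Mrps18b by 0.91 ± 0.21, from 8.36 to 7.74. All these groups overlapped. With the mean over probe sets the falls were smaller for Mrpl19 (-0.53), Mrpl54 (-0.45) and Mrps5 (-0.27, limma adjusted p = 0.0413), all still called.

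Genes of particular places gave a mixed picture. Mrpl45 fell by 0.90 ± 0.11 (limma adjusted p = 1.08e-07), Mrps18a by 0.66, Mrps12 by 0.65, Mrpl11 by 0.42 and Mrpl12 by 0.41, all called. Mrpl58 (-0.38), Mrps18c (-0.29), Mrps30 (-0.25) and Mrpl3 (-0.17) were not called. Mrps36 was the gene that rose. Its product is now known as a subunit that belongs to the oxoglutarate dehydrogenase complex rather than the ribosome. It ran from 7.68 to 8.37 with a median of 7.96 in unsorted and from 7.83 to 8.68 with a median of 8.24 in sorted tumors, a difference of 0.29 ± 0.10 (limma adjusted p = 0.0265). Of the 68 other probe sets, 19 were called lower and none higher in this comparison.

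**Figure D4:**
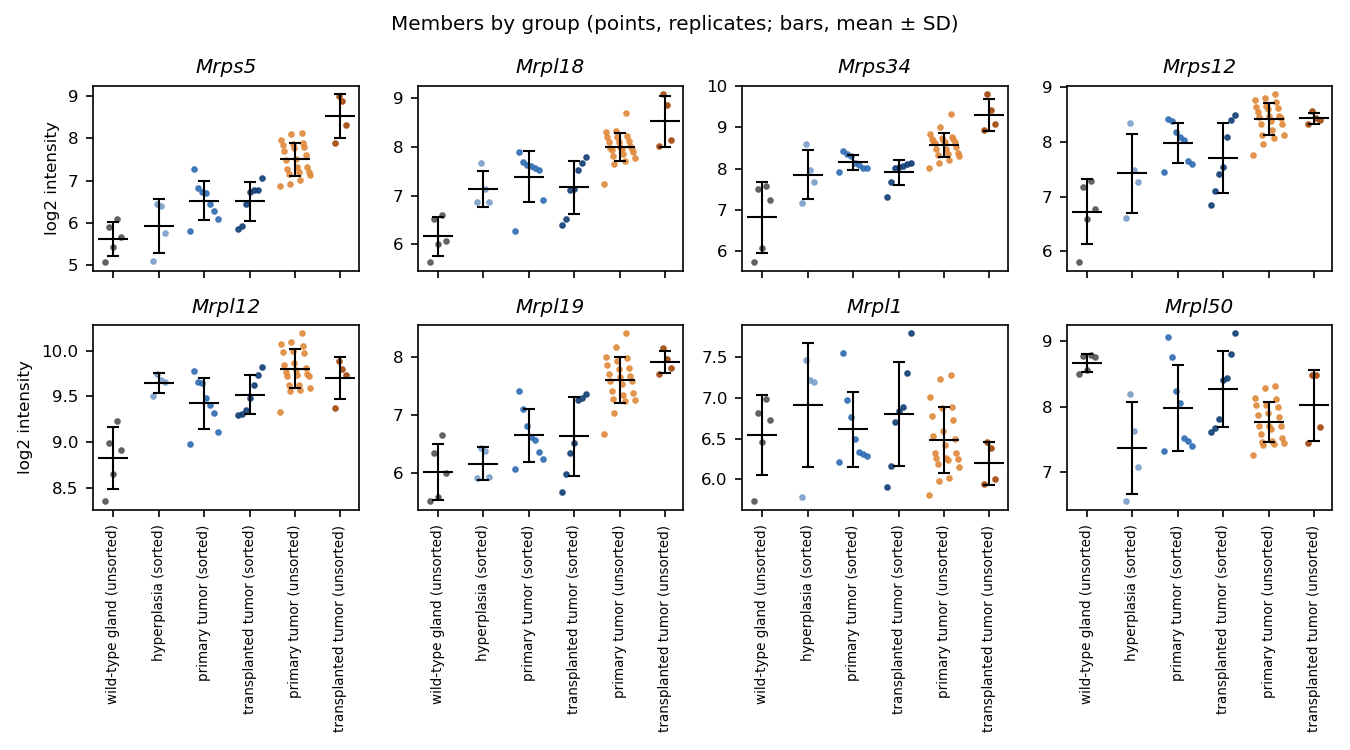
Log2 intensity of Mrps5, Mrpl18, Mrps34, Mrps12, Mrpl12, Mrpl19, Mrpl1 and Mrpl50 by replicate in 6 groups, with bars for the group mean and SD. Mrps5 runs from a gland mean of 5.63 to 8.52 in unsorted transplanted tumors, while Mrpl50 is highest in gland at 8.67.

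Other cells and cell cycling moved with the same comparisons. Between gland and unsorted primary tumors, 7 of 7 endothelial markers and 7 of 8 fibroblast markers were lower, and 5 of 10 luminal markers were higher. Basal markers were lower in 4 of 7 cases, macrophage markers in 3 of 7, lymphocyte markers in 3 of 5 and adipocyte markers in 2 of 6, and 1 of 4 skeletal muscle markers was higher. The summed endothelial level was 11.27 to 12.07 in gland and 8.83 to 10.48 in unsorted primary tumors, and the summed adipocyte level 11.84 to 13.44 and 8.60 to 12.52. Luminal epithelial markers, the defining ones for these samples, were above the floor in every group. Adipoq, Cidec and Pparg were at the floor in sorted primary tumors and in unsorted transplanted tumors, and Pparg in all groups but gland. The other adipocyte markers Lpl, Retn, Fabp4, Cidea and Lep averaged 7.90, 6.70, 6.60, 6.07 and 5.24 in sorted primary tumors. Of the cell cycle genes, 13 of 14 rose in tumors over gland, with a median difference of 2.30. In sorted against unsorted primary tumors 5 of 7 macrophage markers were higher, with a median difference of 1.27 and a summed level of 11.71 to 14.60 against 10.37 to 13.14. In the same comparison 2 of 8 fibroblast markers were higher, 4 of 10 luminal markers were lower, and 11 of 14 cell cycle genes were lower with a median of -1.08. The part of these shifts in the levels of the ribosomal genes was not tested. Arrays of mixed tissue cannot tell fewer cells of a type from less RNA per cell.

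Sorted hyperplasia over wild-type gland gave a smaller difference. Of the 76 genes, 19 rose and 1 fell, with a median of 0.38 against 0.04 over all genes. Of all 15150 genes, 1667 were called higher and 1562 lower (10.3%), or 21.3% in either direction. The share called higher was thus larger among the 76 than among all genes. In 16 genes (21.1%, against 9.27% of all genes) every hyperplasia array was above every gland, and for Mrpl50 every one was below (8.75% of all genes). Without glands 4 and 5 only 3 genes rose and 2 fell, with a median of 0.13, against 4.33% higher and 7.69% lower. Without gland 5 alone 12 rose. The count thus rested largely on the 2 low glands, and sorting differs between these groups together with the tissue state, so the 2 cannot be told apart. Hyperplasia replicates 1 and 2 had log2 spike-in control signals of 12.39 and 11.31. These signals were 8.33 to 9.26 in gland and 8.08 to 10.16 in sorted primary tumors. Both comparisons with hyperplasia share this limit. Fits with the signal as covariate and without these replicates were among the variations described at the end.

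Mrpl12 was 9.75, 9.68, 9.50 and 9.66 in hyperplasia, above all glands, which reached 9.23, and rose by 0.82 ± 0.17 (limma adjusted p = 0.000407). It was still called without glands 4 and 5, at 0.61 (adjusted p = 0.0221). Mrpl35, a large-subunit protein with a bacterial counterpart, was 8.59, 8.86, 8.95 and 9.22 in hyperplasia and 8.05, 7.90, 8.27, 7.13 and 6.80 in gland. It rose by 1.28 ± 0.24 (limma adjusted p = 0.000113), and by 0.83 without the 2 low glands (adjusted p = 0.0158), but the mean over its probe sets gave 0.21 (adjusted p = 0.235). Mrpl50 fell by 1.30 ± 0.30 (limma adjusted p = 0.0016), with 6.56, 7.63, 8.19 and 7.09 in hyperplasia, and had -1.33 without glands 4 and 5 and -0.82 with the mean over its probe sets, called in both. Mrpl12 and Mrpl50 thus kept their calls, in opposite directions, on the chosen probe sets.

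Calls for the other leading genes ended without glands 4 and 5. Mrpl9 went from 1.27 to 1.14 (adjusted p = 0.0638), Mrps34 from 1.03 to 0.41 (0.292), Mrps18c from 1.00 to 0.42 (0.267), Mrpl18 from 0.97 to 0.76 (0.103) and Mrpl45 from 0.54 to 0.29 (0.333), all by limma. Mrps18a and Mrps18b, both at 0.08, were not called, and a difference between the Mrps18 paralogs was itself not tested. Mrps12 (0.70), Mrpl58 (0.60), Mrps30 (0.29), Mrpl3 (0.28) and Mrpl11 (-0.08) were not called.

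Sorted primary tumors were also set against wild-type gland, a comparison added after seeing the data, in which sorting and tissue state again cannot be told apart. Of the 76 genes 37 rose and none fell, against 11.9% higher and 11.4% lower of all genes, with a median of 0.47 against 0.05. At an unadjusted p under 0.05 by limma, 39 were higher and 1 lower. Mrps34 was highest with 1.29 ± 0.23 (limma adjusted p = 7.45e-05), followed by Mrpl18 with 1.13, Mrps12 and Mrps35 with 1.10 each and Mrpl35 with 1.05. Without glands 4 and 5, Mrps34 was at 0.67 (adjusted p = 0.0462) and Mrpl18 at 0.92 (adjusted p = 0.03), while the calls ended for Mrps12 at 0.75 (adjusted p = 0.067), Mrps35 at 0.92 (adjusted p = 0.069) and Mrpl35 at 0.61 (adjusted p = 0.0587), all by limma. Mrpl35 was also not called with the mean over its probe sets (0.10, limma adjusted p = 0.52). Mrps12, for example, ran from 7.46 to 8.42 in sorted tumors, above all glands. In 9 genes (11.8%, against 3.34% of all genes) the sorted tumors were all above the glands, and in none all below (3.4% of all genes). Without glands 4 and 5 the count was 6 higher and 0 lower, with a median of 0.21, against 2.57% and 6.48% of all genes. It was 23 without gland 4 alone and 22 without gland 5 alone.

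The comparison of sorted primary tumor with sorted hyperplasia asked what separates both stages within lacZ-positive cells. None of the 76 genes was called in either direction (limma, lowest adjusted p 0.111), against 1.29% higher and 2.5% lower, or 3.78% in either direction, of all genes, and none had groups that stood apart (0.607% of all genes above and 0.733% below). At an unadjusted p under 0.05 by limma 5 were higher and 0 lower: Mrpl50 at 0.72, Mrps5 at 0.61, Mrps27 at 0.53, Mrpl17 at 0.48 and Mrpl46 at 0.38. The median difference was 0.09, against 0.01 for all genes, and the lowest was -0.31 for Mrpl1. For Mrps5 the hyperplasia values of 5.11, 5.76, 6.44 and 6.40 overlapped the sorted tumors at 5.81 to 7.28. Mrpl12 stood at -0.26, Mrps12 at 0.41 and Mrpl45 at -0.08, all within reach of the replicate spread. The hyperplasia samples also differed in markers of other cells, with a summed lymphocyte level of 9.62 to 13.31 against 8.23 to 10.16 in sorted primary tumors. The summed macrophage level was 13.74 to 14.90 against 11.71 to 14.60. Called lower in the tumors were 3 of 8 fibroblast, 3 of 5 lymphocyte, 2 of 7 endothelial, 2 of 6 adipocyte and 1 of 7 macrophage markers. So were 1 of 10 luminal and 1 of 7 basal markers. The part of those cells was not tested.

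Tumors passaged through RAG2-/- hosts were not called different from primary tumors in any of the 76 genes with the mouse as random block. A fit within mouse called 2 in unsorted tumors, but it rests there on CR115 alone. Among sorted tumors, transplanted minus primary gave 0 called genes (limma, and 0 at an unadjusted p under 0.05), with a median of -0.01 and a range from -0.29 for Mrpl28 to 0.38 for Mrpl51. Of all 15150 genes 0.0% were called, with 2.16% higher and 1.84% lower at an unadjusted p under 0.05 by limma, and 0.0066% had transplants all below the primaries, none of them of the 76. Among unsorted tumors 0 of 76 were called, against 0.752% higher and 0.191% lower, or 0.944% in either direction, of all genes, with a median of 0.05. None of the 76 had groups that stood apart (0.541% of all genes above and 0.165% below). Unadjusted, 6 were higher and 0 lower by limma: Mrps5 at 0.83, Mrps18b at 0.63, Mrps34 at 0.62, Mrps18a at 0.53, Mrpl28 at 0.45 and Mrpl2 at 0.40, with a lowest adjusted p of 0.131. The difference of the transplant effects called 0 of 76 (0.0726% higher, 0.0132% lower and 0.0858% in either direction of all genes), with 6 higher and 0 lower unadjusted by limma and a lowest adjusted p of 0.229.

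The unsorted transplants came from 2 mice, which differed. The mean over the 76 genes was 8.81 and 8.76 in the transplants of CR90 and 8.32 and 8.40 in those of CR115. For Mrps5 the values were 8.99 and 8.89 for CR90 against 7.90 and 8.32 for CR115, and for Mrps18b 9.91 and 9.78 against 8.45 and 8.91. The CR90 transplants were higher in each case. The primary tumor of CR115 was itself high, at 8.69 and 8.64 on its 2 arrays, so its transplants lay below it. These 2 arrays had 42.87% and 41.44% of values below the floor, and the CR90 transplants 41.87% and 42.64%, the largest shares of all arrays. The CR115 transplants had 38.26% and 39.31%. This array property thus cannot be told apart here from the mouse or from transplantation. Where sorted samples shared a mouse, E344 had a primary mean of 8.07 and a transplant at 8.46, and F433 had primaries at 8.15, 8.07 and 8.19 and a transplant at 8.19. The E344 transplant thus lay above its primary, and the F433 transplant was level with the highest of its primaries. A fit with the mouse as a fixed replicate block, added after seeing the data, compares transplants with primaries of the same mouse. For sorted tumors it rests on E344 and F433 and called 0 of the 76 (0.00674% of all genes higher and 0.0% lower), with a median of 0.16. The p-values of this fit measure spread between samples of the same mouse, not between mice. For unsorted tumors the fit rests on CR115 alone, with its averaged primary tumor set against its transplants. There 2 genes were lower, Mrps18c at -1.01 ± 0.23 (limma adjusted p = 0.031) and Mrpl37 at -0.78 ± 0.19 (adjusted p = 0.0393), against 1.38% lower and 3.73% higher of all genes, and the median was -0.33 in place of 0.05. The median for unsorted transplants thus differed in sign between the fit over all mice and the fit within 1 mouse.

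The 76 genes varied together among tumors only in part. Across the 22 unsorted primary tumors the mean pairwise correlation was 0.25, against 0.01 over all genes tested and 0.07 over cytosolic ribosomal protein genes. With each array centred on its median these were 0.25 for the 76 genes and 0.14 for the cytosolic ones. Mrps7, Mrps24 and Mrps22 had the highest mean correlation with the others, at 0.45, 0.44 and 0.43, while Mrpl12 at -0.11 and Mrps6 at -0.03 had the lowest. These values are a description over 22 tumors from 14 mice that share array scaling and, in part, mice.

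The wider machinery of mitochondrial translation was read from lists of other genes. Of 4 further ribosomal subunits with other names, all 4 rose in unsorted primary tumors over gland (median 0.74): Gadd45gip1 by 1.52 (limma adjusted p = 9.31e-08), Ptcd3 by 0.79, Dap3 by 0.69 and Chchd1 by 0.65. Among assembly factors 18 of 23 rose and 1 fell (median 0.62), led by Mpv17l2 at 1.80, a membrane protein needed for assembly, Mrm1 at 1.14, a ribosomal RNA methyltransferase, and Noa1 at 1.11, a GTPase. The assembly factor that fell was Mterf3 (-0.47). Translation factors rose in 7 of 10 cases and fell in none (median 0.68; 0 lower unadjusted by limma), with Gfm2, which recycles ribosomes, at 0.99, Mtfmt, which formylates the initiator tRNA, at 0.96 and Tsfm, the exchange factor for the elongation factor Tufm, at 0.81. With all glands, these lists had larger shares higher than the 29.4% of all genes.

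Other lists were more divided. Mitochondrial aminoacyl-tRNA synthetases rose in 7 of 19 cases (36.8%, near the 29.4% of all genes) and fell in 1 (median 0.29), with the threonine enzyme Tars2 at 1.83, the isoleucine enzyme Iars2 at 0.99 and the histidine enzyme Hars2 at 0.84. Genes of mitochondrial DNA and transcription split 5 higher and 2 lower of 10 (median 0.34), against 29.4% and 21.5% of all genes. The helicase Twnk stood at 1.14, the mRNA-binding protein Slirp at 1.12 and the RNA polymerase Polrmt at -0.87. Regulators of mitochondrial biogenesis split 2 higher and 3 lower of 9 (22.2% and 33.3%, median -0.26). The coactivator Ppargc1a was at 0.92, while Myc at -0.92 and Nrf1 at -0.66 were lower, all called. Cytosolic ribosomal protein genes rose in 32 of 44 cases and fell in 1 (median 0.46). This list was taken by symbol and includes paralogs. In unsorted primary tumors its means ran from 5.02 for Rps4l, near the floor, to 13.57 for Rpl41. The part of expression level in its differences was not tested.

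Glands 4 and 5 weighed on these counts too. Without them, when 16.7% of all genes were higher and 17.5% lower, the counts higher and lower were 2 and 0 of 4 other subunits, 9 and 1 of 23 assembly factors and 6 and 0 of 10 translation factors. They were 4 and 1 of 19 synthetases (21.1% higher), 3 and 2 of 10 mitochondrial DNA and transcription genes, and 1 and 4 of 9 regulators. Cytosolic ribosomal protein genes then had 9 higher and 1 lower with a median of 0.18, against 0.61 for the Mrpl and Mrps genes, and cell cycle genes kept 13 and 0 with a median of 1.90.

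In sorted against unsorted primary tumors, where 15.7% of all genes were lower, 3 of 4 other subunits fell (Gadd45gip1 -0.69, Ptcd3 -0.62, Dap3 -0.35), and Chchd1 was not called. Assembly factors fell in 8 of 23 cases, with Mpv17l2 at -0.90 and Eral1, a chaperone of the small ribosomal RNA, at -0.85, and rose in 1, Mrm1 at 1.17. Translation factors fell in 4 of 10 cases, among them Tsfm at -0.77, and mitochondrial DNA and transcription genes in 5 of 10, with Tfam, which packages mitochondrial DNA, at -0.60. Synthetases fell in 4 of 19 cases (21.1%), with Tars2 at -1.30, regulators in 1 of 9 (11.1%), Gabpb1 at -0.44, and cytosolic ribosomal protein genes in 9 of 44 (20.5%) with a median of -0.16, shares near that of all genes. In sorted primary tumor against hyperplasia, where no Mrpl or Mrps gene was called, the assembly factors Dhx30 at 0.54 and Rcc1l at 0.47 and the factor Mtfmt at 0.57 rose.

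**Figure D5:**
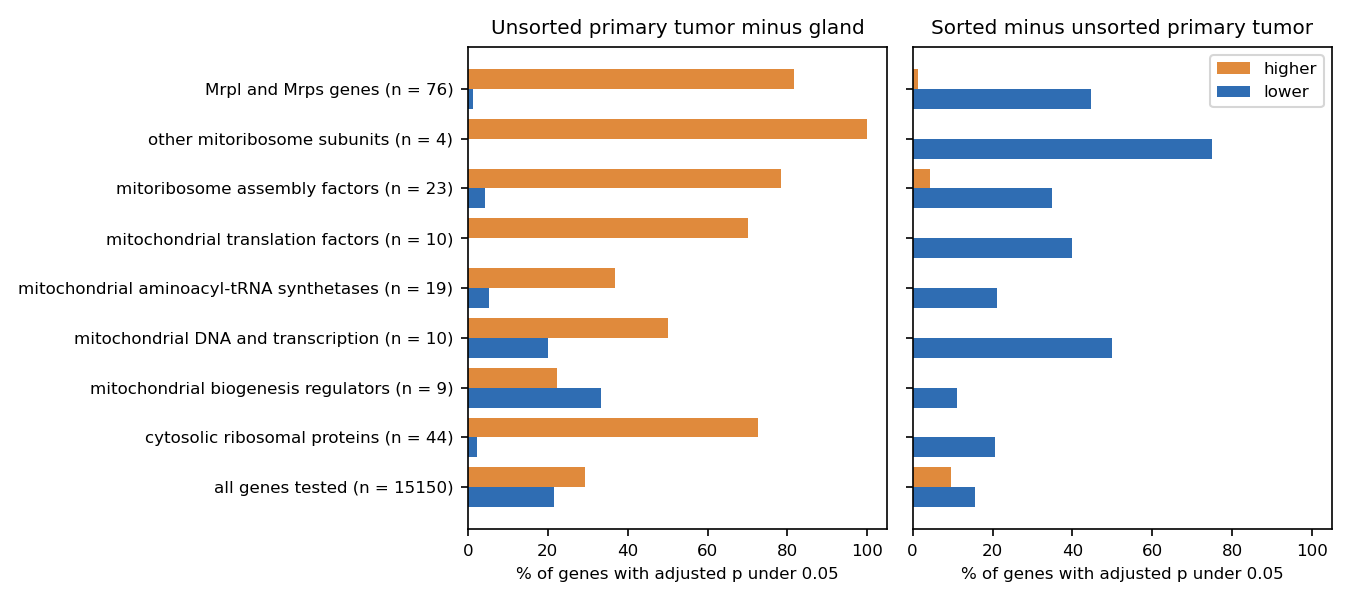
Percent of genes called higher and lower (limma adjusted p under 0.05) in 8 lists and over all genes tested, for unsorted primary tumor minus gland and for sorted minus unsorted primary tumor. The Mrpl and Mrps genes have 62 higher and 1 lower of 76 in the first comparison and 1 higher and 34 lower in the second.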

How the data were processed

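Arrays, 51 in all, were hybridized with Trizol-extracted total RNA, per the labels' protocols. Per the table's values, the deposited unit is intensity, linear, 1 value per probe set and array. The sources used here do not state the authors' summary method or scaling. Array medians ran from 42.9 to 57.8. The number of arrays limits the precision.

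Control probe sets (64) and 1 probe set with extreme values were left out. A floor of 32, under which 37.4% of the values lay, was applied to each deposited intensity before log2 was taken. Symbols came from the platform annotation, updated with RefSeq (GRCm38.p6): 34944 probe sets had 1 symbol, 932 several and 9160 none. Genes above the 40th percentile on at least 4 arrays were tested.

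All 6 label groups were fitted together on 50 replicates with limma 3.58.1 in R 4.3.3 (lmFit, eBayes), with the mouse of origin as random block (statmod 1.5.0, correlation 0.358). Because of this block, fitted differences need not equal differences of group means. Benjamini-Hochberg adjustment ran over 15150 genes, with calls under 0.05. The fit was tested on simulated data. Figures used matplotlib 3.10.9.

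The members and gene lists were chosen with earlier results of these data known. Named genes were the largest called rises and falls of each comparison (up to 8 each for the main ones and 5 for others), 10 genes named for their place in the ribosome, and up to 3 called genes of each other list, or every gene of a list of 5 or fewer. Other lists were other ribosomal subunits, assembly factors, translation factors, synthetases, mitochondrial DNA and transcription, biogenesis regulators, cell cycle, cytosolic ribosomal proteins and markers of 8 cell types. Skeletal muscle and lymphocyte markers were among the latter. Sorted primary tumor minus gland and the fits without glands 4 and 5 or without 4 unsorted tumor arrays, and a fit of the transplant comparisons with the mouse as fixed block, were added after seeing the data.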

Additional observations from a re-analysis of the deposited data

Results flagged for a closer look

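A search for a sample far from the others covered 115 sets of 4 to 10 samples of 1 group, most of them from the 22 named genes. It found 4, a smaller share than the about 1 set in 20 that chance marks. Mrpl54 was high in unsorted transplanted tumor replicate 1, at 8.66 against 8.29 in the nearest sample. Mrps36 was low in gland replicate 5, at 7.34 against 7.82. Mrps7 was low in hyperplasia replicate 1, at 6.96 against 7.18, and in sorted transplanted tumor replicate 4, at 6.41 against 7.08.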

How the results depend on the processing

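The floor, the scaling, the filter, the probe set rule, the fit, array quality terms and left-out replicates were varied. No named gene went from a call in one direction to a value of the opposite sign, but single other probe sets were called opposite to the chosen one in 6 genes for unsorted tumor minus gland and in 2, Mrpl17 and Mrps26, for sorted tumor minus gland. For unsorted tumor minus gland the count higher was 56 to 64 without 1 gland (lower 1 to 1), and with the mean of probe sets the count lower was 0. Sorted minus unsorted had 0 higher with the spike-in as covariate. Sorted tumor minus hyperplasia had 2 higher with only sorted arrays of a Gapdh ratio below -0.1 and 0 to 1 without 1 hyperplasia replicate. The unsorted transplant comparison had 1 higher at a floor of 100, 2 with its groups fitted alone, 5 without the mouse block and 0 to 1 without 1 transplant, and the difference of transplant effects 2 without the mouse block. Hyperplasia minus gland had 10 higher with groups fitted alone, 3 without glands 4 and 5, 11 without hyperplasia replicates 1 and 2, 15 to 18 without 1 hyperplasia replicate and 12 to 25 without 1 gland. Its count lower was 2 with the spike-in, 2 without glands 4 and 5, 0 without hyperplasia replicates 1 and 2 and 1 to 2 without 1 replicate. Sorted tumor minus gland had 16 higher with groups fitted alone, 6 without glands 4 and 5 and 22 to 38 without 1 gland, and 1 lower without the mouse block. The causes were not tested. Without 1 replicate the medians ran from 0.76 to 0.95 for unsorted tumor minus gland. Under centring and quantile scaling the counts higher for unsorted tumor minus gland were 59 and 61. Over all genes the share of calls that were higher in sorted minus unsorted tumors moved from 38.0% to 50.4% with centring. For named genes 1540 results kept their side, 46 lost and 14 gained a call. With the mouse as a fixed replicate block, which was added after seeing the data, the unsorted transplant comparison had 2 lower and a median of -0.33, and the sorted one 0 called. The unsorted one rests on CR115 alone. Low glands limit every comparison with gland.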
